A study of Mus musculus with 6 samples.

Results

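The genes of the cytosolic ribosomal proteins were examined by subunit in MuSCs, the stem cells that reside along skeletal muscle fibres, sorted from muscle and sequenced without culture, with and without inactivation of Taf4a. Members were protein-coding rows of the deposited table whose symbol has the form of a ribosomal protein (Rpl or Rps with a number, Rplp0, Rplp1, Rplp2 and Rpsa, without the S6 kinases), 82 of 22081 genes. Of these, 31 encode proteins of the small 40S subunit, 46 encode proteins of the large 60S subunit and 5 are paralogues with a main gene of similar name (Rpl3l, Rps27l, Rpl22l1, Rpl7l1 and Rpl36al). The paralogues Rpl39l and Rpl10l were not analysed here. RNA-seq was available for 6 libraries, 3 control and 3 labelled Taf4asKO, all from mice on a C57BL/6 background. Both groups carried loxP-flanked Taf4a alleles (Taf4a fl/fl). Taf4asKO mice in addition carried a tamoxifen-inducible Cre recombinase under Pax7 and received tamoxifen, which removes Taf4a exons in cells that express Pax7. Controls were littermates without the Cre allele (Pax7CE+/+) or with it (Pax7CE+/p). Whether the control mice of these libraries also received tamoxifen was not stated for them in the sources used here. The control libraries have WT in their titles and Control as their genotype. Cells came from adult mice of both sexes and were sorted as negative for SCA1, CD45 and CD31 and positive for Integrin-alpha7 or for a Pax7 reporter. The sources used here do not say how many mice made up a library, so p-values measure the spread between these samples.

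Ribosomes translate every mRNA of the cell, and their 2 subunits each hold ribosomal RNA and a fixed set of proteins that is needed in nearly equal copy numbers. The small subunit reads the mRNA, and the large subunit joins the amino acids. Nearly all mRNAs of ribosomal proteins start with an oligopyrimidine tract (a C followed by pyrimidines), through which the kinase mTOR and the RNA-binding protein LARP1 control their translation and stability. TAF4A, the product of Taf4 (formerly Taf4a), is a subunit of TFIID, the complex that binds core promoters and recruits RNA polymerase II to them.

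Promoters of 8 members are shown because they belong to the members with large decreases that have a promoter in the table used (Rpsa, Rps9, Rpl28), the gene used as RT-qPCR reference (Rplp0), a paralogue with its main gene (Rps27l and Rps27), a second paralogue (Rpl7l1) and the single 40S or 60S gene above zero (Rpl41). Each sequence is RefSeq sequence of build GRCm38.p6, 150 bases from 100 before to 50 after the annotated start, 5′ to 3′. Capitals mark an exact match to CCAAT (the NF-Y box), GGGCGG (Sp1), TATAAA (the TATA box), CCGGAAG (Ets and GABP) or AAGATGG (YY1) on either strand, or an oligopyrimidine tract, here each stretch of a C and at least 4 more pyrimidines whose C lies within 10 bases of the annotated start. Such a stretch is marked from the first C in that window and may be the inner end of a longer run.
Rpsa, chr9:120127666-120127815, plus strand: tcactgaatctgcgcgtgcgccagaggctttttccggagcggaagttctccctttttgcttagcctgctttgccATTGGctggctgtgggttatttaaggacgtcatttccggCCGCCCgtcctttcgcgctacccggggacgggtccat
Rpl28, chr7:4792865-4793014, plus strand: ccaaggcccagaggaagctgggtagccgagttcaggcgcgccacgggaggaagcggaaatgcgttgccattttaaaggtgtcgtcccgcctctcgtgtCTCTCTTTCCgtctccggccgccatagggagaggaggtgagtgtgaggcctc
Rps9, chr7:3703941-3704090, plus strand: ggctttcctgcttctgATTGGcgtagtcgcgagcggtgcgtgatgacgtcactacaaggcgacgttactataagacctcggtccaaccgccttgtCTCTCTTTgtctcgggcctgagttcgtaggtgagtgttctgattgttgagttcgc
Rplp0, chr5:115559367-115559516, plus strand: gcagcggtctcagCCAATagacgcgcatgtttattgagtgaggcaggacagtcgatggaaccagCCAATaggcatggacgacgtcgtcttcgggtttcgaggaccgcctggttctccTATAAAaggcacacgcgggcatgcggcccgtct
Rps27, chr3:90213599-90213748, minus strand: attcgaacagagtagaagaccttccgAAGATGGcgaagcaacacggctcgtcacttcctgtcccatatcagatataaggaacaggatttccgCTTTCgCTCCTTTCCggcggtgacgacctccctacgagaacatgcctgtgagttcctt
Rps27l, chr9:66945986-66946135, plus strand: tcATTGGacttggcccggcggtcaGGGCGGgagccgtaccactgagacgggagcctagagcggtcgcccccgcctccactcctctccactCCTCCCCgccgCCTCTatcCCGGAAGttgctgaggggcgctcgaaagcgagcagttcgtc
Rpl7l1, chr17:46782607-46782756, minus strand: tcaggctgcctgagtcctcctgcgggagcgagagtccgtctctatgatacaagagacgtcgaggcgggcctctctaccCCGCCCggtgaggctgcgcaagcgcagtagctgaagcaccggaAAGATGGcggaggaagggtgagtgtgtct
Rpl41, chr10:128549119-128549268, minus strand: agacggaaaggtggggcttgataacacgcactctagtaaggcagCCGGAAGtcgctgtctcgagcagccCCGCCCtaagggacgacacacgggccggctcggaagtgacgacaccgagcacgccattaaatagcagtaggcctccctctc
Rps9, Rpl28, Rps27 and Rps27l had at least 1 such tract. For Rpsa, Rplp0, Rpl7l1 and Rpl41 those letters did not occur there, and for Rplp0 the annotated start lies 5′ of the TATAAA match. The paralogue Rps27l and its main gene Rps27 had 2 each.

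Some facts of the libraries bear on all values. Values are normalized counts, that is, reads per gene divided by a size factor of the library according to the methods of the study, in whole numbers, with totals from 12338676 to 14551732 per library. Taf4 was at 613, 534 and 478 in control libraries and at 631, 565 and 574 in Taf4asKO libraries, a difference within the spread (log2 fold change 0.13, SE 0.12, limma adjusted p = 0.524). This gene-level value sums all exons and did not separate the labels, so directions refer to the labels of the libraries. All 10 listed MuSC markers were present, with a summed level of 54907 to 59989 in control and 56985 to 62741 in Taf4asKO. Of these, Myf5 (log2 fold change -0.85), Cdh15 (-0.52) and Itga7 (-0.43) were called lower, Sdc4 (0.88) and Vcam1 (0.74) were called higher, and the other 5, Pax7 among them, were not called. Of the glial markers, Sox10 was at 185, 534 and 420 in control and 734, 1016 and 900 in Taf4asKO and was called higher, and S100b was at 34, 47 and 49 against 39, 78 and 68 and was not called. The 6 fibro-adipogenic markers summed to 53301 to 79195 and 33227 to 55257. Col3a1 was called lower, with 46225, 47112 and 47700 in the controls and 13082, 17573 and 16995 in Taf4asKO. The other 5 had log2 fold changes of 0.88 (Col1a1), 0.77 (Dcn), 0.98 (Pdgfra), 1.24 (Lum) and 0.54 (Ly6a) and were not called, whereas with the replicate number as a block Col1a1, Dcn, Pdgfra and Lum were called higher. The 4 endothelial markers summed to 877 to 1257 and 1379 to 1662, and the 6 muscle fibre markers to 1243 to 3830 and 2129 to 2695, with no gene of either list called without the block and the endothelial Cdh5 and Kdr called higher with it (limma adjusted p = 0.0178 and 0.0127). Of the blood markers Cd68 was analysed, at 114 to 294 in control and 174 to 185 in Taf4asKO. The part of other cell types in the results below was not tested. In bulk RNA, fewer cells of a type and less RNA per cell cannot be told apart.

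Most ribosomal protein genes were lower in the libraries labelled Taf4asKO. Of the 82 members, 70 were called lower and 0 were called higher (limma, adjusted p under 0.05 over all genes tested and a change of at least 1.3-fold on the log2(value + 1) scale), against 6.71% of the 18562 genes tested called lower and 5.94% called higher. At an unadjusted p under 0.05, 75 members passed, all of them 40S or 60S genes. All 82 members had passed the filter on low values (a mean of at least 5 over the 6 libraries). The median log2 fold change was -0.77 over the members and 0.004 over all genes tested. Among the 1960 other protein-coding genes with a mean of at least 1000, the median was 0.05, with 217 called lower and 221 called higher. In 73 members all 3 Taf4asKO libraries were below all 3 control libraries, which held for 16.4% of all genes tested. With the replicate number as a block, 73 members were called lower, against 8.99% of all genes tested. Among the named members, Rpl5, Rpl10a, Rpl12, Rpl15, Rpl22l1, Rpl23a, Rpl28, Rps2, Rps10, Rps18, Rps25 and Rps28 overlap a gene on the other strand, and their values are uncertain to that extent. The same holds for Rps27, Rpl5, Rpl10, Rpl36a, Rps6 and Rpl3, since 83.2% to 98.5% of the 75-base windows of their transcripts also occurred in transcripts of other genes.

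**Figure D1:**
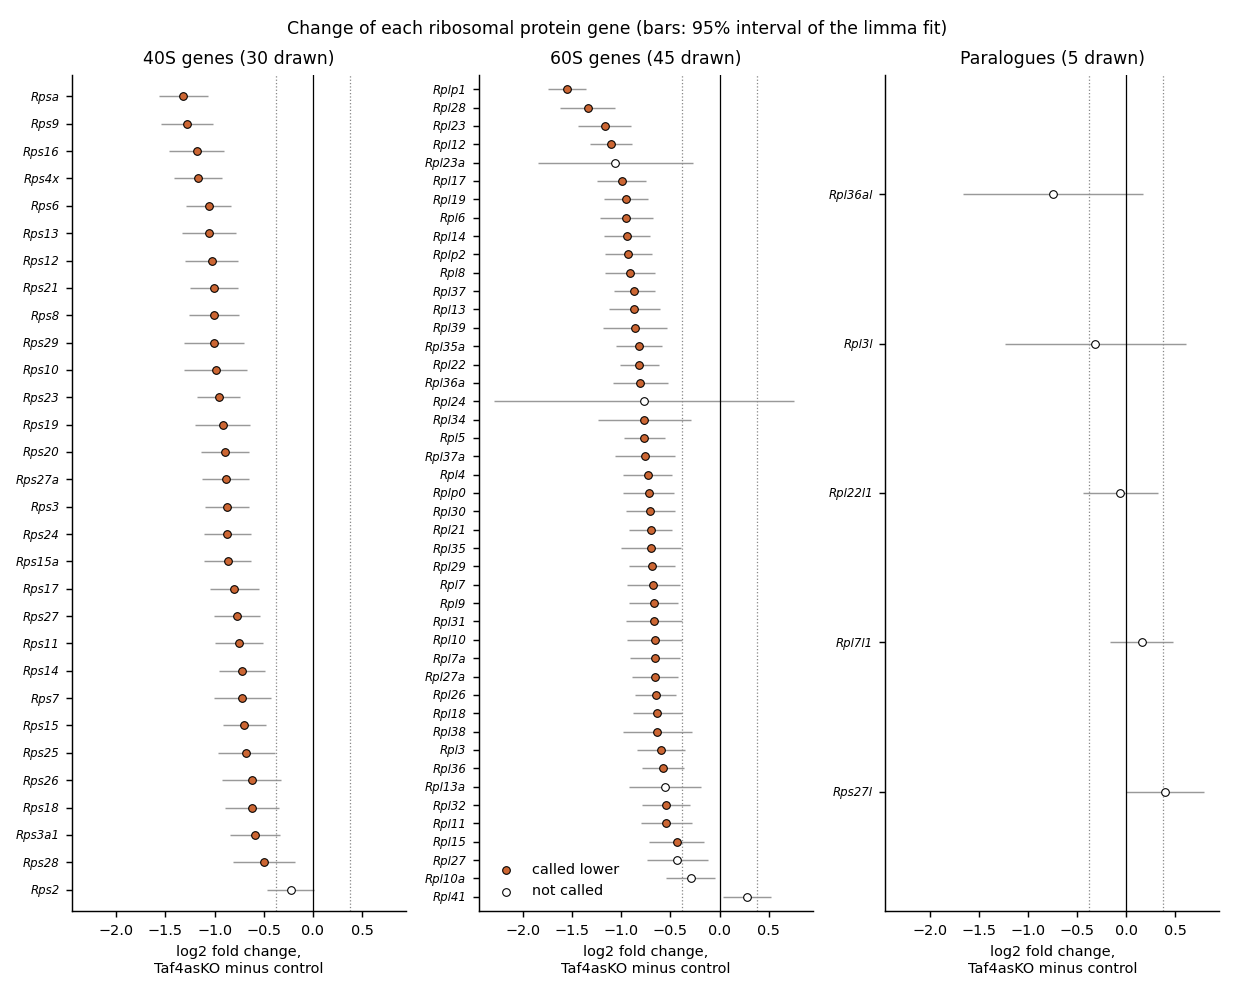
Log2 fold change of 80 members on the log2(value + 1) scale (x axis), ordered within 40S genes, 60S genes and paralogues. Points are estimates, bars the 95% interval, filled points are called lower and dotted lines mark a 1.3-fold change. Filled points make up 29 of the 30 40S genes drawn, 39 of 45 60S genes and 0 of 5 paralogues.

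The share of the members in all normalized counts of protein-coding genes was 2.64%, 3.02% and 2.64% in control and 1.58%, 1.53% and 1.47% in Taf4asKO, or 2.77% ± 0.219 and 1.53% ± 0.0585 (SD, n = 3). The groups did not overlap, and the share in the Taf4asKO libraries was 44.9% lower. Among the 77 40S and 60S genes, control replicate 2 had the highest control value in 75 genes, and Taf4asKO replicate 1 had the highest Taf4asKO value in 62. Without control replicate 2 the median of the members was -0.68 and 67 were called lower. Leaving out Taf4asKO replicate 3 gave the smallest count, 58.

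**Figure D2:**
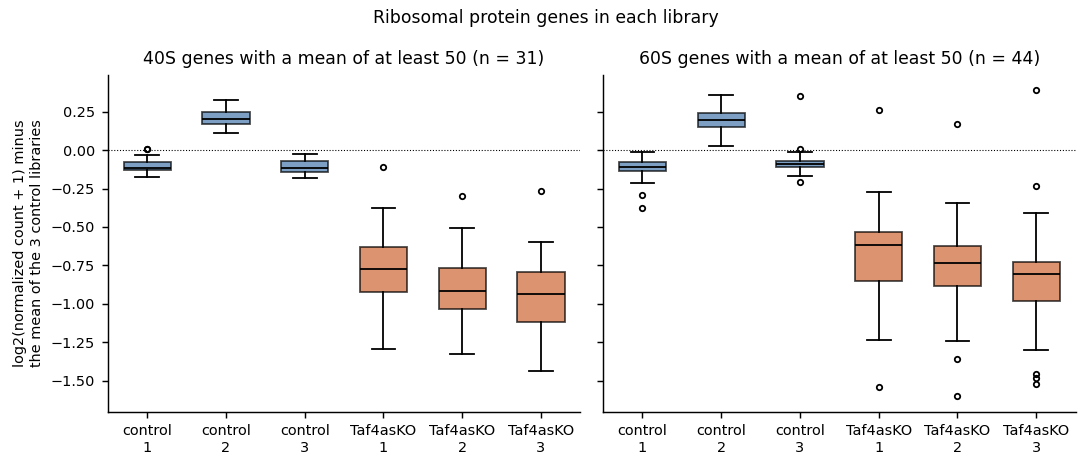
Ribosomal protein genes with a mean of at least 50 in each library, as log2(normalized count + 1) minus the mean of the 3 control libraries (y axis). Boxes span the quartiles over genes, with the median as a line. Control replicate 2 lies above the other 2 control libraries, and the boxes of the 3 Taf4asKO libraries lie below all control boxes in both subunits.

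Nearly all 40S genes were lower. All 31 had a log2 fold change below zero, with a median of -0.89, quartiles of -1.01 and -0.72 and a range of -1.32 to -0.23, and 30 were called lower. The largest decrease was that of Rpsa, a protein at the back of the small subunit whose free form is also known as the laminin receptor. Rpsa was at 9327, 11189 and 9049 normalized counts in the controls and at 3995, 4214 and 3623 in Taf4asKO (log2 fold change -1.32, SE 0.11, limma adjusted p = 0.000132). Every Taf4asKO value was less than every control value, with a mean 59.98% lower. Rps9, a protein of the early folding 5′ domain of the small subunit rRNA, had 4503, 5620 and 4707 in control and 2300, 1961 and 1850 in Taf4asKO (log2 fold change -1.28, adjusted p = 0.00023 with limma). Rps16, whose tail reaches the tRNA in the decoding centre, had 918, 1194 and 927 in control against 464, 415 and 448 (-1.18). The X-linked Rps4x had 3826, 4766 and 3905 against 1879, 1952 and 1699 (-1.17). In these 4 genes the groups lay far apart relative to the spread within each.

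Rps6, the substrate of the S6 kinases downstream of mTOR, had 2497, 2916 and 2547 normalized counts in the controls and 1343, 1315 and 1162 in Taf4asKO (log2 fold change -1.06, SE 0.10, limma adjusted p = 0.000316). At the other end of the called 40S genes, Rps18, a head protein near the contact with the large subunit, had a log2 fold change of -0.62, and Rps3a1, a protein of the platform, of -0.59. Rps28, at the mRNA exit, was called at -0.50 with 972, 1371 and 987 in control and 842, 769 and 723 in Taf4asKO (limma adjusted p = 0.045). Its call was lost when Taf4asKO replicate 1, 2 or 3 or control replicate 2 was left out, and the log2 fold change without that control was -0.33. It was also lost after adjustment for exon length and GC content (-0.47). Rps18 lost its call without Taf4asKO replicate 2 (adjusted p = 0.0527 with limma) or replicate 3 (0.0573), and Rps3a1 without replicate 3. The single 40S gene not called was Rps2, a protein of the mRNA entry channel, with 2094, 2559 and 2169 in control and 2099, 1839 and 1880 in Taf4asKO (-0.23, 95% interval -0.46 to 0.01, limma adjusted p = 0.194). Taf4asKO replicate 1 reached the control range in this gene. Rps2 overlaps Snhg9 on the opposite strand, and 50 other genes share at least 1 window of 75 bases with its transcript.

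By place in the subunit, the 14 genes of the 40S head were all called lower, with a median of -0.89, and so were 16 of 17 genes of the body and platform, with a median of -0.87. Levels per kilobase of exon had a median of 1151 normalized counts per kilobase over the 40S genes and all 6 libraries. The exon length of a gene counts every base of any of its annotated exons and can exceed the length of its mRNA. The highest were Rps15 (3873) and Rps3a1 (3474) and the lowest Rps10 (227) and Rps25 (222). In the control libraries alone Rps23 (4526) was above Rps3a1 (4186), so the second place depends on the libraries averaged. The order also depends on the length used, since Rps10 had 2311 bases of exon and 522 in its shortest RefSeq-linked coding transcript. Rps24, named after its values were seen, had 6256 and 519, and Rps15 had 630 and 500. Since reads that map to several places were removed, the order of levels is uncertain for genes with many shared windows, which made up 77.01% in Rps10, 64.3% in Rps25, 60.2% in Rps3a1 and 19.7% in Rps15. All 4 were called lower, with a log2 fold change of -0.70 for Rps15, -0.59 for Rps3a1, -0.99 for Rps10 and -0.68 for Rps25. Rps25 lost its call without Taf4asKO replicate 3 (limma adjusted p = 0.0541), and Rps15 after adjustment for exon length and GC content (-0.43, 0.0557).

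The 60S genes were lower as well, with a smaller median of -0.73, quartiles of -0.90 and -0.65 and a range of -1.55 to 0.27. Of 46 genes, 40 were called lower and 45 were below zero. The stalk is the flexible arm that recruits elongation factors, and its 4 genes differed in the size of their change. Rplp1 had 5771, 6181 and 5905 normalized counts in the controls and 2046, 1958 and 2074 in Taf4asKO (log2 fold change -1.55, SE 0.09, limma adjusted p = 1.88e-05). It was the member with the largest decrease, and its spread within each group was narrow. Rplp2, its partner in the stalk dimer, had 5902, 7169 and 5823 against 3460, 3250 and 3187 (-0.93). Rpl12, at the stalk base, had 3943, 4732 and 4163 against 2001, 1967 and 1974 (-1.11, named after its values were seen). Rplp0, the stalk scaffold, is also called m36b4 and was the reference gene of RT-qPCR in the study. It had 7319, 8844 and 7113 against 5237, 4532 and 4336 (-0.72, SE 0.12, limma adjusted p = 0.00393). All 3 Taf4asKO values of Rplp0 were below all control values, with a mean 39.4% lower.

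Outside the stalk, Rpl28 had 1695, 2124 and 1599 normalized counts in the controls and 772, 698 and 653 in Taf4asKO (log2 fold change -1.34). Rpl23, at the interface with the small subunit, had 4391, 5757 and 4505 against 2294, 2221 and 1970 (-1.17). In both genes the Taf4asKO values did not reach the control values (limma adjusted p = 0.000234 and 0.000477). Rpl5 and Rpl11 bind the 5S rRNA and, when free of ribosomes, the p53 inhibitor MDM2. Rpl5 had 3243, 3545 and 3154 against 2082, 1937 and 1829 (-0.77), and Rpl11 had 1578, 2031 and 1646 against 1284, 1213 and 1098 (-0.54). Both were called, and Rpl11 lost its call without Taf4asKO replicate 2 (adjusted p = 0.0689 with limma) or replicate 3 (0.0841). Of the 8 genes for proteins that line or surround the peptide exit tunnel, 7 were called lower, with a median of -0.80.

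The 6 60S genes not called were of different kinds. Rpl24 (14, 5 and 9 normalized counts in control, 1, 6 and 12 in Taf4asKO) and Rpl23a (27, 45 and 22 against 16, 15 and 11) were near the filter limit, although their proteins are constant parts of the ribosome. Of the 75-base windows of their transcripts, 80.9% and 81.7% also occurred in transcripts of other genes, and the authors removed reads that map to several places. Their values are uncertain for that reason, as are those of Rpl13a (212, 300 and 234 against 188, 156 and 160), with 56.3% of windows shared. Rpl27 (-0.43, limma adjusted p = 0.0692) and Rpl10a (-0.30, 0.108) were lower in every Taf4asKO library without passing. With the replicate block, Rpl13a, Rpl23a and Rpl27 were called lower (limma adjusted p = 0.0362, 0.0471 and 0.043).

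Rpl41 differed in direction from every other 40S and 60S gene. It encodes the shortest protein of the ribosome, a single helix between the subunits. It had 1179, 1391 and 1142 normalized counts in the controls and 1477, 1387 and 1618 in Taf4asKO (log2 fold change 0.27, SE 0.11, 95% interval 0.03 to 0.52, limma adjusted p = 0.131). The groups overlapped in 1 control library, replicate 2, and the gene did not pass. After adjustment for exon length and GC content together with the replicate block it was called higher (0.41, limma adjusted p = 0.0326). Its level per kilobase (1169) lay above the 60S median of 922. The interval of Rpl41 did not reach the -0.73 of the median 60S gene. Among the genes called lower, Rpl15 was the closest to the limit (795, 1026 and 770 against 641, 656 and 601, -0.44, limma adjusted p = 0.0468). It lost its call in 5 of the 6 fits that left out 1 library, with a log2 fold change of -0.31 without control replicate 2. Rpl34, named after its values were seen, was called lower (-0.77, SE 0.21) with overlapping groups, since Taf4asKO replicate 2 (1093) was above control replicate 1 (1068).

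Levels of the 60S genes per kilobase were highest for Rplp1 (7994 normalized counts per kilobase over all 6 libraries) and Rpl36 (5423), and lowest for Rpl24 (7.61) and Rpl23a (26.8), with the same uncertainty from shared windows (45.9% in Rplp1 and 70.9% in Rpl36). The exon length was that of the transcript in Rplp1 (499 bases) and Rpl36 (383). It was longer in Rpl24 (1030 against 677) and Rpl23a (847 against 560), so this order also depends on the length used. Rpl36 was called lower at -0.58 and, after adjustment for exon length and GC content, had -0.28 and was not called (limma adjusted p = 0.213).

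The small and large subunits were compared within each library. The summed 40S values were 46.8% lower and the summed 60S values 43.0% lower in Taf4asKO than in control. The ratio of summed 40S to summed 60S values was 0.703, 0.705 and 0.695 in control and 0.659, 0.651 and 0.655 in Taf4asKO. It was 6.55% lower in Taf4asKO, 0.701 ± 0.00501 against 0.655 ± 0.00395 (SD, n = 3), and no library of either group reached the range of the other. The ratio does not depend on the scaling of a library. When each of the 77 genes was left out in turn, the groups did not overlap in any case. Without Rpsa the control libraries lay between 0.626 and 0.634 and the Taf4asKO libraries between 0.598 and 0.611. Since the sum runs over members whose change was known, no p is given. The ranges of both subunits overlapped broadly at the level of single genes.

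**Figure D3:**
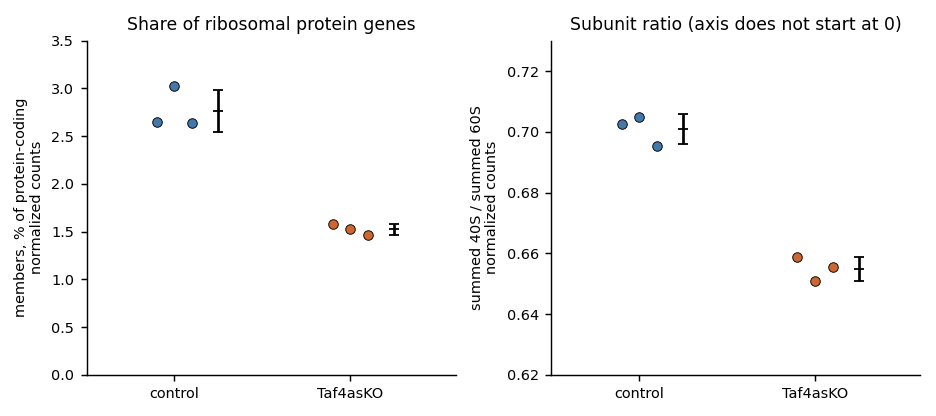
Left, share of the 82 members in the normalized counts of protein-coding genes per library (y axis, %). Right, ratio of summed 40S to summed 60S normalized counts per library. Each point is a library, and the marker with bars gives mean and SD of 3 libraries. Neither measure overlaps between control and Taf4asKO.

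None of the 5 paralogues was called in either direction, and their median log2 fold change was -0.06. Rps27l, a p53 target with a protein close to that of Rps27, had 131, 145 and 98 normalized counts in the controls and 151, 164 and 172 in Taf4asKO (log2 fold change 0.40, SE 0.18, limma adjusted p = 0.177). Rps27 had 2580, 3093 and 2622 against 1745, 1592 and 1511 (-0.77). The paralogue was thus at 5.08%, 4.69% and 3.74% of the value of its main gene in control and at 8.65%, 10.3% and 11.4% in Taf4asKO. The log2 ratio of Rps27l to Rps27 was higher by 1.17, and all Taf4asKO libraries were above all control libraries.

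Rpl7l1, which acts in assembly of the large subunit, had 710, 1005 and 687 normalized counts in the controls and 901, 880 and 855 in Taf4asKO. Rpl7 had 5618, 7252 and 5726 against 4114, 4019 and 3483. Their log2 ratio was higher by 0.83 in Taf4asKO, with every library above the controls. Rpl22l1, whose mRNA the RPL22 protein is known to repress, had 135, 178 and 183 against 176, 158 and 139, while Rpl22 had 3601, 3996 and 3724 against 2162, 2231 and 2035. This log2 ratio was higher by 0.75, again without overlap. For each of these 3 pairs the exact permutation test over libraries (two-sided) gave p = 0.1, the smallest value that 3 against 3 libraries can give, and 0.167 after adjustment over the 5 pairs.

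The other 2 pairs rested on low values. Rpl3l, the form of Rpl3 found in mature striated muscle, had 8, 21 and 17 normalized counts in the controls and 10, 12 and 12 in Taf4asKO, against 4447, 4939 and 4110, and 3268, 3021 and 2663, for Rpl3. The log2 ratio to Rpl3 differed by 0.28 with overlapping groups (exact permutation p = 0.7) and changed sign without control replicate 1 (-0.095). Rpl36al had 21, 29 and 11 against 9, 11 and 13, and its ratio to Rpl36a (1724, 2190 and 1706 against 1172, 1065 and 967) differed by 0.06 (exact permutation p = 0.9). It changed sign without control replicate 3 (-0.24) or Taf4asKO replicate 3 (-0.13). The main genes of the paralogues with no value, Rpl39 (-0.86) and Rpl10 (-0.66), were called lower. Rps4l, a copy of Rps4x annotated as a pseudogene and so outside the members, had 42, 50 and 28 against 37, 33 and 52.

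**Figure D4:**
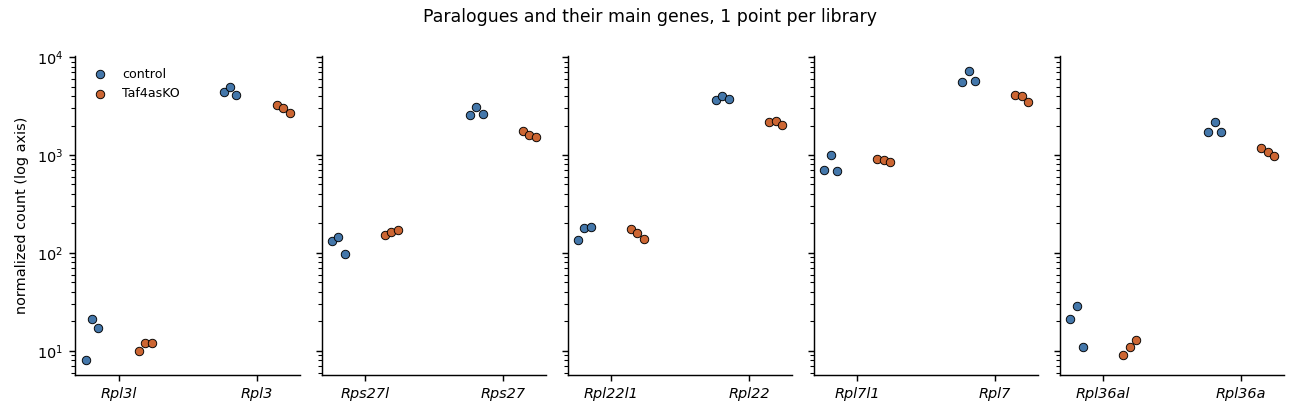
Normalized counts of 5 paralogues and their main genes in each of the 6 libraries (log y axis), control in blue and Taf4asKO in orange. The Taf4asKO points of Rpl3, Rps27, Rpl22, Rpl7 and Rpl36a lie below the control points, whereas those of Rpl3l, Rpl22l1, Rpl7l1 and Rpl36al overlap them and those of Rps27l lie above.

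The members shared features that their names do not set. They lay on 19 chromosomes, 4 of them on the X chromosome, all 4 called lower. Their median exon length, over all annotated exons of a gene, was 1776 bases, against 4491 in 13887 other protein-coding genes tested. The median of their shortest RefSeq-linked coding transcripts was 785.5 bases. Their median level per kilobase of exon was 945 against 45.6 in the other genes. Of the 77 40S and 60S genes, 30 host snoRNAs in their introns, of which 27 were called lower (median -0.87), as were 43 of the 47 without (-0.77). The 38 genes with over 50% of 75-base windows shared with other genes had 32 calls and a median of -0.71, and the 39 with less had 38 calls and a median of -0.87. Within the 40S genes both medians were -0.89, and within the 60S genes they were -0.67 and -0.82. All 10 genes with at most 10% of windows shared were called, with log2 fold changes of -1.01 to -0.55. Among them, Rps15a and Rps20 had transcripts of 5179 and 3706 bases, with 211 and 238 windows shared. Their percentages depend on that length and could be higher for a shorter transcript. Rps3, a 40S head protein with 0% of windows shared, had 7048, 8123 and 7083 against 4308, 4054 and 3749 (named after its values were seen). Rows for named pseudogenes of ribosomal proteins were low, with a mean of at most 164.8. Of 67 such rows 39 were tested, and 5 were called lower and 0 higher, against 6.71% and 5.94% of all genes tested. The summed level of the 67 rows was 43.3% lower in Taf4asKO.

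Across the 75 40S and 60S genes with a mean of at least 50, the log2 fold change had Spearman's rho of -0.28 with the mean value, -0.02 with exon length and 0.17 with the percent of shared windows. These are descriptions across genes of the same 6 libraries, and genes are not independent replicates.

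Promoters were available for 62 members, with 250 bases before and 50 after the annotated start (the row listed first was used for the 10 genes with several). An oligopyrimidine tract near the start, as marked in the sequences of Rps9 and Rpl28, was found in 34 of 62 (54.8%), against 32.1% of 10705 other protein-coding genes tested and 30.8% of all 27025 genes with a promoter. The search rests on the annotated start, which may be misplaced, as the TATAAA match of Rplp0 shows. A gene without a match may thus still have a tract. CCGGAAG on either strand occurred in 38.7% of members, 16.9% of the other genes tested and 9.12% of all. AAGATGG occurred in 14.5%, 6.98% and 6.48%, CCAAT in 32.3%, 38.4% and 37.9%, GGGCGG in 61.3%, 63.6% and 35.9% and TATAAA in 9.68%, 6.99% and 14.2%. Matches to different motifs were counted separately and may overlap. By subunit, the 7 40S genes with CCAAT had a median log2 fold change of -1.01 and the 16 without it -0.75, whereas the 11 60S genes with CCAAT had -0.72 and the 23 without -0.76. With and without GGGCGG the medians were -0.97 and -0.72 in the 40S genes (12 and 11 genes) and -0.68 and -0.77 in the 60S genes. None of these splits was tested. With and without a tract found at the annotated start, the medians were -0.87 and -0.90 in the 40S genes and -0.73 and -0.74 in the 60S genes. With and without CCGGAAG they were -0.70 and -0.92 in the 40S genes and -0.66 and -0.77 in the 60S genes. AAGATGG and TATAAA occurred in at most 5 genes of either subunit. These are exact letters in a window, not binding sites.

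Genes around the ribosomal proteins were taken from 4 lists. Among ribosomal proteins that the name rule leaves out, Rack1, a scaffold protein of the 40S head, had 8523, 10460 and 8230 normalized counts in the controls and 4366, 3912 and 3740 in Taf4asKO (log2 fold change -1.17, limma adjusted p = 0.00034). Fau, which encodes a 40S protein fused to a ubiquitin-like protein, had 1882, 2187 and 1920 against 1205, 1120 and 1087 (-0.81, 0.00104). Both were called lower.

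Of 17 other mRNAs known for an oligopyrimidine tract, 12 were called lower and 0 higher, with a median of -0.54 and all 17 below zero. The lowest were Eef1b2, a subunit of the exchange factor of elongation factor 1 (2874, 3553 and 2759 against 1711, 1531 and 1454, -0.96), and Hnrnpa1, a splicing factor (2969, 2993 and 3032 against 1797, 1758 and 1726, -0.77). The highest were Pabpc1, the poly(A)-binding protein (6783, 7540 and 5989 against 6903, 6108 and 6017, -0.09), and Eif2s3x, a subunit of initiation factor 2 (-0.17). Neither of these passed.

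Of 13 regulators, only Larp1 was called, with 2800, 2935 and 2497 normalized counts in the controls and 2134, 2002 and 1932 in Taf4asKO (-0.44, limma adjusted p = 0.0169). It lost its call without Taf4asKO replicate 2 (adjusted p = 0.0866 with limma) or replicate 3 (0.0913). Myc, a transcription factor that drives ribosome synthesis, had 1362, 1822 and 1515 against 2489, 1736 and 1459 (0.25) with overlapping groups, and Mdm2 (0.17) and Trp53 (-0.24) did not pass. Of 25 chaperones and assembly factors, only the nucleolar protein gene Ncl was called (13259, 15680 and 13007 against 9579, 9547 and 9641, -0.54). It lost its call without Taf4asKO replicate 2 (adjusted p = 0.0561 with limma). Fbl, the methyltransferase of rRNA, had -0.50 (limma adjusted p = 0.0707, and 0.0426 with the replicate block), while the export adaptor Nmd3 and the GTPase gene Gtpbp4 were at 0.14 each and did not pass. The median of this list was -0.25 with 22 of 25 below zero. In all, 16 of 58 listed genes were called lower, and 8 or 9 when Taf4asKO replicate 2 or 3 was left out. Of all genes tested, 6.71% were called lower, and the single calls among 13 regulators and 25 assembly factors lie near that share. Of the 16, 12 were among the tract mRNAs and 2 were Rack1 and Fau.

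**Figure D5:**
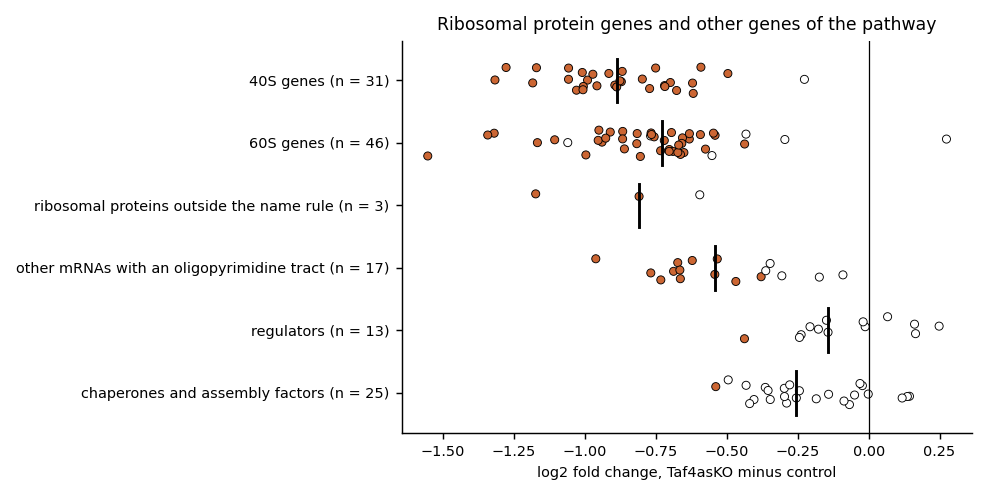
Log2 fold change on the log2(value + 1) scale (x axis) of 40S genes, 60S genes and the 4 lists of other genes. Each point is a gene, filled where called lower, and the vertical bar is the median of the list. Medians run from -0.89 in the 40S genes to -0.14 in the regulators.

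Ribosomal proteins of mitochondria, whose names resemble those of the members and which serve a separate ribosome, were examined for comparison after the data were seen. Of 77 such genes, 3 were called lower and 2 higher, with a median log2 fold change of 0.08. Of all genes tested, 6.71% were called lower and 5.94% higher. Their summed values were 11286, 14288 and 11003 in control and 11986, 12194 and 12283 in Taf4asKO, and the groups overlapped.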

How the data were processed

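RNA-seq of 3 control and 3 Taf4asKO samples of sorted MuSCs was analysed from 1 table. Per the study's methods and the submitters' processing notes, reads were trimmed with Trimmomatic 0.39, aligned to mm10 with STAR 2.6.0c, freed of multi-mapping reads, counted over exons with featureCounts 1.6.0 without reads overlapping several genes, and normalized with DESeq2 1.14.1. The deposited values are whole numbers and were treated as a score, taken to be reads divided by a size factor per library and then rounded. That reading rests on the methods and the values, since the table itself does not state it. Whether counting used strand is not given in the sources used here, so values of the 19 members with an overlapping antisense gene are uncertain. All value columns belonged to a sample.

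Genes with a mean of at least 5 were tested on log2(value + 1) with limma 3.58.1 in R 4.3.3 (intensity trend, two-sided, Benjamini-Hochberg), without covariates. Fold changes on that scale understate changes of low genes. A gene was called with an adjusted p under 0.05 and a change of at least 1.3-fold, limits taken from the methods of the study. The script was tested on simulated data. Exon lengths, snoRNAs and transcript sequences came from GENCODE M21 (mm10), where 99.8% of gene identifiers were found, and promoters from RefSeq. An exon length is the union of all annotated exons of a gene. Windows were taken from the shortest coding transcript of a member with a RefSeq record. Pairs were compared by an exact permutation test (scipy 1.17.1). Replicate numbers 1 to 3 stand in the sample titles. Deviations from group means correlated at 0.235, 0.126 and 0.150 between same-numbered libraries and at -0.149 to 0.014 between others. Deviations within a group sum to zero, so positive values for same-numbered libraries lower the others in part by construction. The numbers may thus pair the samples, and a fit blocked by replicate number was made beside the unblocked one. The main calls and the permutation tests did not use the numbers. Other scalings, filters, pseudocounts, limits and an adjustment for exon length and GC content were tried, and each library was left out in turn.

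Named genes were Taf4, the paralogues and their main genes, Rplp0, Rplp1, Rplp2, Rpsa, Rpl5, Rpl11 and Rps6, per subunit the 4 lowest and 4 highest log2 fold changes (mean of at least 50) and the 2 highest and 2 lowest levels per kilobase, and from the other lists Fau, Rack1 and the 2 lowest and 2 highest of each. Some of these genes, and some listed markers, are not reported here. Members and lists were chosen with earlier results of these data known. The places in the ribosome and the groups of pseudogenes and mitochondrial genes were chosen after values were seen. Figures were drawn with matplotlib 3.10.9.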

Additional observations from a re-analysis of the deposited data

How the results depend on the processing

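Of 82 members, 70 were called lower, and the number ranged from 58 to 70 when each library was left out, with 25 to 30 of the 40S genes and 33 to 40 of the 60S genes. With the replicate block (paired by number) 73 were called, 30 of the 40S and 43 of the 60S genes. The block changed no other call of the members than the 3 named, and among the other listed genes it changed that of Fbl, besides the markers of other cell types named with it. Testing against a 1.3-fold change in place of no change (limma treat) called 35 members lower, 19 of the 40S and 16 of the 60S genes, and 4 of the other 58 genes, which 16 passed; that test is stricter by construction. With an adjusted p under 0.01, 10 of the 58 were called. These 58 ranged from 8 to 17 calls when each library was left out. The medians of the 40S and 60S genes kept their order in every fit that gave both, from -0.95 to -0.79 and from -0.77 to -0.64 when each library was left out, and at -0.90 and -0.72 with adjustment for exon length and GC content.

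The log2 ratio of Rpl3l to Rpl3 ranged from -0.095 to 0.47 and that of Rpl36al to Rpl36a from -0.24 to 0.25 when each library was left out, and Rpl22l1 ranged from -0.20 to 0.025. Nmd3 ranged from -0.066 to 0.28 in the same fits and was -0.0099 with the adjustment for exon length and GC content, with and without the replicate block. Gtpbp4 was -0.0067 under both. The cause was not tested. Over all alternatives, 922 values of single genes stayed on the same side, 45 lost their call, 13 gained it and 7 changed sign.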
